A study of Xenopus tropicalis with 15 samples.

Results

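The genes described here are the heat shock proteins, their J-domain partners and the chaperonin subunits of Xenopus tropicalis, measured in peripheral blood cells with and without erythropoietin (EPO). They were taken by symbol from the deposited count table: every gene whose symbol begins with hsp or dnaj, the chaperonin subunits cct2 to cct8, and tcp1. The rule found 84 of the 26531 genes in the table, and 55 of them had enough counts to be tested among 8939 tested genes. By class they are 14 Hsp70 genes (11 tested), 4 Hsp90 genes (3 tested), 43 Hsp40 genes (27 tested), 10 small heat shock protein genes (3 tested), 10 chaperonin genes (all 10 tested) and 3 other matches (1 tested). The 3 others are hspbp1, hspbap1 and hspg2, the last of which encodes perlecan, a matrix proteoglycan and no chaperone. Classes were set from the symbol alone, not from what each protein does.

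The cells were total blood cells of wild-type frogs, drawn from the heart into EDTA and washed. Some were harvested fresh. The rest were cultured for 1.5 h or 4.0 h in IMDM that had been diluted and given fetal calf serum. Control cultures had no EPO, and the others received it at 1 ng/mL, as a recombinant X. tropicalis protein produced in E. coli. Each of the 5 groups has 3 libraries, numbered 1 to 3, described in the labels as biological replicates. Whether a number stands for an animal, a pool or a day is not stated. The p-values cover the variation among these libraries.

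Hsp70 proteins bind and release unfolded stretches of other proteins in a cycle driven by ATP. Hsp40 (J-domain) proteins deliver clients to Hsp70 and start its ATPase, nucleotide exchange factors reset it, and Hsp90 takes over later folding steps. Small heat shock proteins hold unfolding proteins without ATP, and chaperonins fold proteins inside a closed ring, of actin and tubulin among others in the cytosol. In red cell precursors of mammals, Hsp70 is known to bind and protect the transcription factor GATA1.

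Library totals ran from 1329340 to 2329659 counts in fresh cells, from 1958663 to 4472724 in the control cultures and from 2287764 to 6351053 in the EPO cultures, so EPO libraries tended to be deeper. Levels are given in CPM, a library's counts scaled to a common total with TMM factors, and a floor of 3 counts lay at 0.455 to 2.21 CPM depending on the library (counting error only). Libraries were made from transcript ends, so a level is not divided by length, and levels of different genes are related only as shares of a class sum. Of the 8 erythroid marker genes, hba1, an alpha globin gene, had group means from 212798 to 243224 CPM. The thrombocyte list (7 genes) summed to group means of 406 to 459 CPM, of which tubb1 alone held 354 to 422 CPM. The granulocyte and monocyte list (9 genes) summed to 251 to 385 CPM. The T and NK cell list (5 genes) summed to 2.33 to 6.82 CPM, with cd3e and zap70 at a mean of 0 in 1 or more groups. The B cell marker ms4a1 had group means of 46.8 to 54.4 CPM, while cd79b and pax5 were at a mean of 0 in 1 or more groups. In bulk samples, fewer cells of a type and less RNA per cell cannot be told apart.

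The 84 genes together took 0.160% to 0.288% of each library's counts. Their summed level in fresh cells was 1740 ± 39.3 CPM (SD, n = 3). In control culture it was 2039 ± 198 CPM at 1.5 h and 1992 ± 197 CPM at 4.0 h. With EPO it was 2558 ± 259 CPM at 1.5 h and 2408 ± 269 CPM at 4.0 h. In each of the 6 pairs of libraries with the same number and time, the EPO library was the higher, by 1.25 to 1.26 times at 1.5 h and 1.16 to 1.29 times at 4.0 h. These sums are descriptions and were given no test.

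The classes differed in how far their sums lay apart. Fresh cells had an Hsp90 sum of 90.8 ± 17.3 CPM (SD, n = 3). It was 137 ± 36.2 and 199 ± 26.1 CPM without and with EPO at 1.5 h, and 128 ± 29.3 and 191 ± 32.3 CPM at 4.0 h. The gene hsp90ab1 alone made up 70.5% to 84.0% of the Hsp90 sum in each library. The Hsp70 sum was 535 ± 80.0 CPM in fresh cells, 684 ± 113 and 902 ± 164 CPM without and with EPO at 1.5 h, and 637 ± 104 and 828 ± 136.5 CPM at 4.0 h. The small heat shock proteins summed to 12.4 ± 4.39 CPM in fresh cells, 14.6 ± 7.54 and 38.8 ± 15.9 CPM without and with EPO at 1.5 h, and 18.4 ± 7.65 and 33.9 ± 15.3 CPM at 4.0 h. Of these sums, the untested gene hspb8 held 3.72 ± 4.32 CPM in fresh cells. In control cultures it held 0.145 CPM at 1.5 h and 0.672 CPM at 4.0 h. The tested hsp30c went from 1.06 CPM in fresh cells to 3.91 and 5.83 CPM in those cultures. For hsp30d these group means were 3.22, 7.58 and 8.48 CPM, and for hsp30e 2.15, 1.73 and 2.71 CPM. The 8 subunits of the cytosolic chaperonin summed to 233 ± 40.9 CPM in fresh cells, 269 ± 38.9 and 353 ± 52.3 CPM at 1.5 h, and 285 ± 45.9 and 348 ± 39.97 CPM at 4.0 h. The mitochondrial pair hspd1 and hspe1 stayed within group means of 58.4 and 72.0 CPM.

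Within Hsp40 the sums were also taken by type. Type A, which shares its domain layout with bacterial DnaJ, summed to 228 ± 25.2 CPM in fresh cells, 282 ± 19.5 and 357 ± 13.9 CPM without and with EPO at 1.5 h, and 273 ± 29.1 and 334 ± 36.9 CPM at 4.0 h. Type B, which holds dnajb1 and 9 others, summed to 62.3 ± 2.92 CPM in fresh cells, 65.8 ± 14.8 and 91.2 ± 25.0 CPM at 1.5 h, and 70.7 ± 17.8 and 88.3 ± 21.1 CPM at 4.0 h. Type C, which holds J-domain proteins of many other layouts, lay between 499.6 and 523 CPM in all 5 group means.

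**Figure D1:**
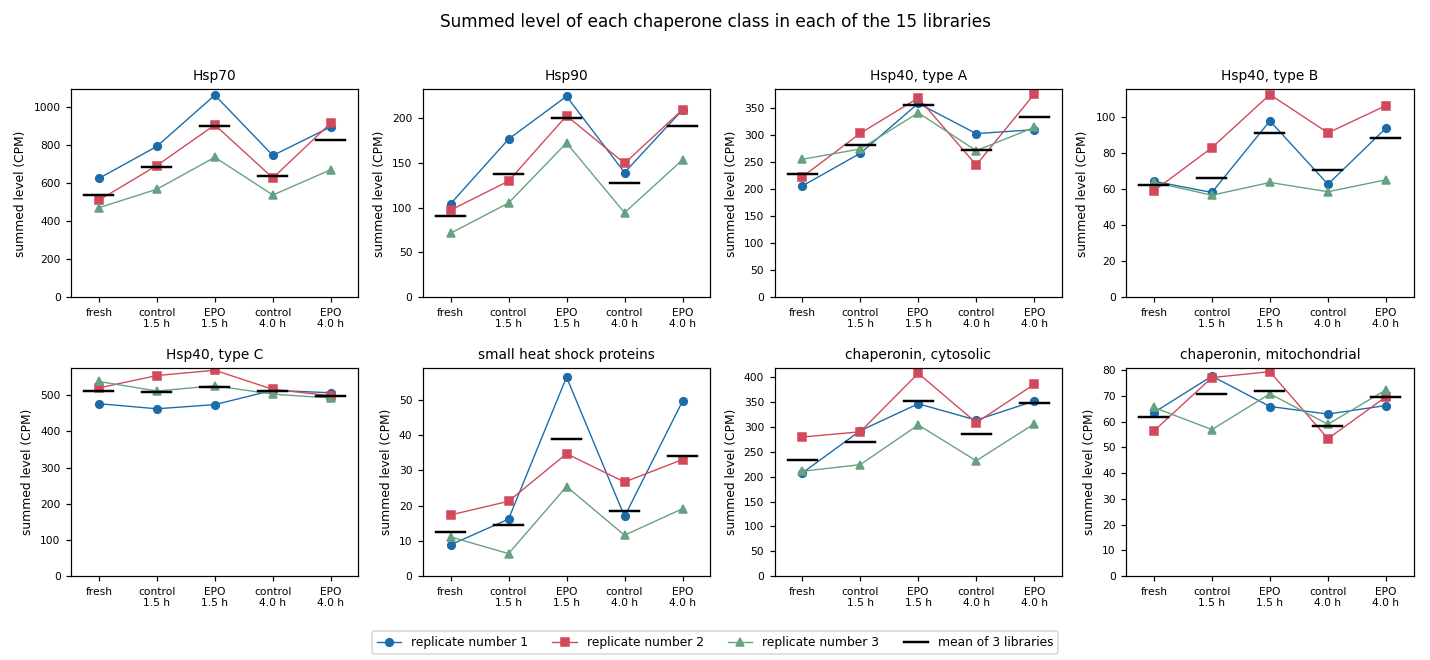
Summed level (CPM, linear axis from 0) of each chaperone class in each of the 15 libraries, with lines joining libraries of the same replicate number and black bars for the mean of 3. Hsp90 sums average 199 CPM with EPO and 137 CPM without at 1.5 h, while type C Hsp40 group means stay between 499.6 and 523 CPM.

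After 1.5 h with EPO, 2 members had risen in the fit without a replicate block. One was dnaja1, a type A Hsp40 that works with cytosolic Hsp70. Its level was 17.5, 26.4 and 19.1 CPM in control libraries 1, 2 and 3 and 54.3, 39.3 and 42.4 CPM in the EPO libraries, and the groups did not overlap. It rose by a log2 fold change of 1.09 (SE 0.25, edgeR quasi-likelihood test, adjusted p = 0.0325). The other was hspbp1, which binds Hsp70 and acts as a nucleotide exchange factor. It went from 6.11, 4.49 and 4.77 CPM to 20.7, 19.6 and 13.8 CPM, also without overlap, and rose by 1.82 (SE 0.42, edgeR adjusted p = 0.0339). The dnaja1 call was lost without control library 1 or 3 or EPO library 1 or 3 (edgeR adjusted p up to 0.247), and the hspbp1 call without any single one of the 6 libraries (0.0657 to 0.212). With all libraries thinned to the smallest total, an alternative chosen after seeing the data, hspbp1 passed (0.0295) and dnaja1 did not (0.0602).

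These 2 genes are 3.64% of the 55 members tested, beside 0.38% of all tested genes that rose. No member fell, beside 0.0559% of all tested genes. Of the 55, 44 had a fold change above 0 and their median log2 fold change was 0.28, beside -0.02 for all 8939 genes.

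Libraries with the same number deviated together across the groups, so a fit with the number as a block was run beside the first. With the block 10 members rose at 1.5 h (18.2%, beside 1.07% of all tested genes) and none fell (0.481% of all tested genes). Besides dnaja1 and hspbp1 they were the Hsp70 genes hspa5, hspa1b and hsp70, the Hsp90 genes hsp90ab1 and hsp90b1, the type B Hsp40 gene dnajb1, and the cytosolic chaperonin subunits cct4 and tcp1. The count was 2, 4 and 6 without number 1, 2 and 3, settings chosen after seeing the data. Over all tested genes it was 70, 76 and 70.

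The gene whose test moved most with the block was hspa5, which encodes BiP, the Hsp70 of the endoplasmic reticulum. Fresh libraries 1, 2 and 3 held 28.8, 6.94 and 4.09 CPM. Controls at 1.5 h held 41.4, 23.2 and 12.3 CPM and EPO libraries 129, 76.7 and 53.7 CPM. Number 1 was the highest and number 3 the lowest in all 5 groups, so the spread within a group was wide. Within each number the EPO library was above its control at both times, and each control was above the fresh library. The ratios differed between the numbers. The log2 fold change at 1.5 h was 1.76 (SE 0.66, edgeR adjusted p = 0.545) without the block and 1.81 (SE 0.21, adjusted p = 1.29e-08) with it.

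A pair of stress-inducible Hsp70 copies also rose with the block. For hspa1b the controls at 1.5 h held 13.1, 30.9 and 13.5 CPM and the EPO libraries 64.4, 62.5 and 25.6 CPM, so the groups overlapped. Its log2 fold change was 1.36 (SE 0.53, edgeR adjusted p = 0.561) without the block and 1.39 (SE 0.26, adjusted p = 0.000412) with it. The gene listed as hsp70 held 5.24, 14.7 and 5.97 CPM in controls and 40.3, 32.6 and 15.6 CPM with EPO, without overlap. Its values were 1.69 (SE 0.46, edgeR adjusted p = 0.154) and 1.81 (SE 0.34, adjusted p = 0.000438). These genes and hspa1a and hspa1l may be close copies that share reads, so how counts split among them is uncertain. The copy hspa1a passed in neither fit: its group means lay between 84.7 and 99.4 CPM, with a log2 fold change of -0.22 (SE 0.28, edgeR adjusted p = 0.965) at 1.5 h.

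Of the Hsp90 genes, hsp90ab1, the constitutive cytosolic form, held 148, 96.3 and 82.8 CPM in controls and 172, 163 and 135 CPM with EPO at 1.5 h. The groups overlapped through control 1, and the log2 fold change was 0.53 (SE 0.19, edgeR adjusted p = 0.415) without the block and 0.55 (SE 0.13, adjusted p = 0.00837) with it. For hsp90b1, the Hsp90 of the endoplasmic reticulum, the controls held 13.5, 11.2 and 5.57 CPM and the EPO libraries 34.7, 18.3 and 16.5 CPM, with no overlap. Its log2 fold change was 1.18 (SE 0.38, edgeR adjusted p = 0.290) and 1.21 with the block (SE 0.31, adjusted p = 0.0240). The inducible-type gene hsp90aa1.1 was at 0.12 (SE 0.28, edgeR adjusted p = 0.981), and its neighbour hsp90aa1.2 had 9 counts in all.

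The chaperonin subunit cct4 held 24.9, 52.6 and 39.8 CPM in controls and 60.3, 92.5 and 54.4 CPM with EPO at 1.5 h. Its log2 fold change was 0.80 (SE 0.24, edgeR adjusted p = 0.200) without and 0.80 (SE 0.18, adjusted p = 0.00575) with the block. For tcp1 the controls held 51.5, 55.1 and 32.2 CPM and the EPO libraries 77.4, 79.0 and 56.7 CPM, with fold changes of 0.61 (SE 0.21, edgeR adjusted p = 0.354) and 0.62 (SE 0.17, adjusted p = 0.0373). The groups did not overlap for either subunit. Nor did they for cct3 (controls up to 36.7 CPM, EPO libraries from 40.5 CPM) and cct6a (up to 38.0 and from 42.2 CPM). The share of all tested genes without overlap was not counted, so overlap is description only, here and for other genes. In the assembled ring each subunit takes up the same number of places. The other 6 subunits passed in neither fit, with log2 fold changes from -0.03 (SE 0.24) for cct7 to 0.51 (SE 0.21) for cct3, and differences between subunits were not tested.

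For dnajb1, the main J-domain partner of inducible Hsp70, the controls held 35.8, 45.7 and 22.3 CPM and the EPO libraries 61.5, 82.0 and 39.2 CPM, which overlapped. The log2 fold change was 0.80 (SE 0.30, edgeR adjusted p = 0.468) and 0.80 with the block (SE 0.20, adjusted p = 0.0194). No type C gene passed in either edgeR fit, and none had an unadjusted p under 0.05: 11 of 18 lay above 0 and their median was 0.19. The gene dnajc16, which made up 13.3% to 23.1% of the Hsp40 sum in each library, had group means from 152 to 180 CPM and a log2 fold change of -0.06 (SE 0.15, edgeR adjusted p = 0.981).

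**Figure D2:**
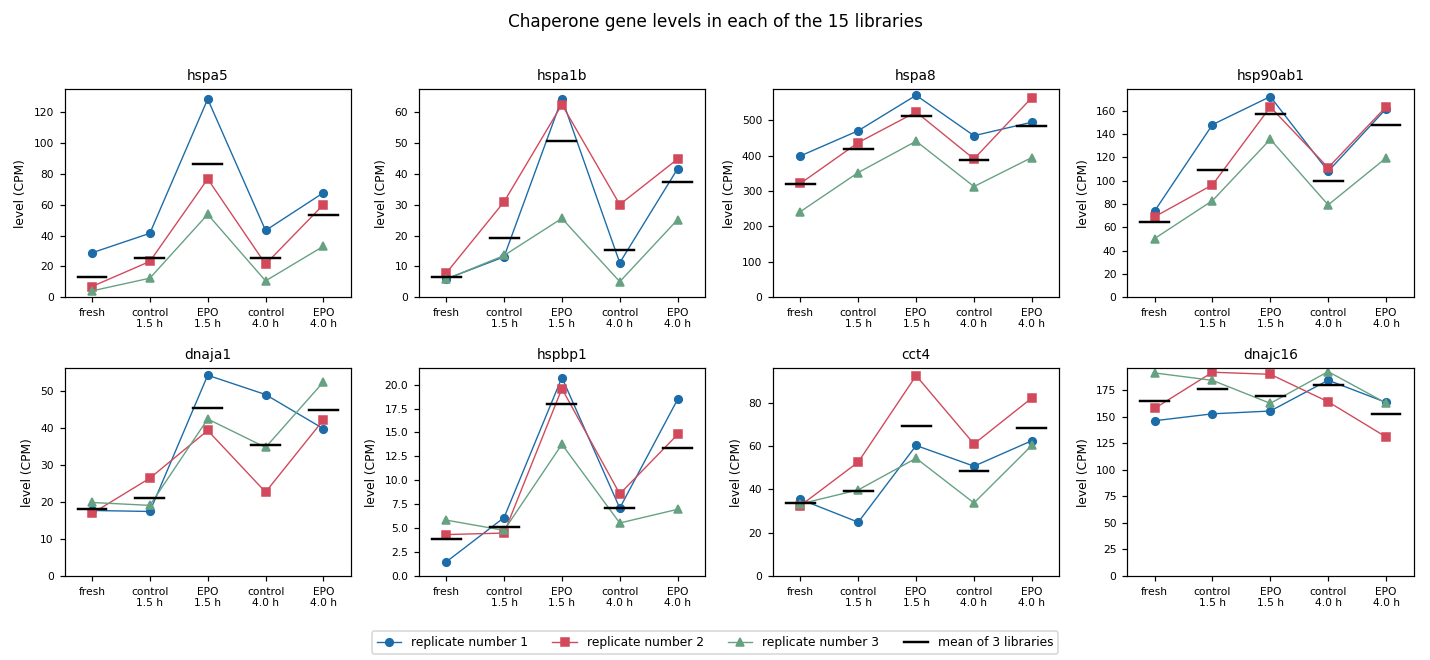
Level (CPM, linear axis from 0) of 8 chaperone genes in each of the 15 libraries, with lines joining libraries of the same replicate number and black bars for the mean of 3. Number 3 is the lowest hspa5, hspa8 and hsp90ab1 library in each of the 5 groups, and hspa5 in library 1 goes from 41.4 CPM to 129 CPM with EPO at 1.5 h.

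At 4.0 h no member passed in the edgeR fit without the block, beside 0.0559% of all tested genes that rose and 0.134% that fell. DESeq2's Wald test also called 0 members, beside 49 of all tested genes. An unadjusted p under 0.05 was found for 6 members (10.9%), beside 7.1% of all tested genes. Of the 55 members 42 lay above 0, with a median log2 fold change of 0.33 beside 0.00 for all genes. With the block 3 members rose (5.45%, beside 0.324% of all tested genes) and none fell (0.526% of all tested genes). All 3 had also risen at 1.5 h with the block.

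They were hspa5, hspa1b and hsp90ab1, and 1 was left without number 1, 2 or 3, beside 58, 40 and 35 of all tested genes. For hspa5 the controls at 4.0 h held 43.3, 21.5 and 10.6 CPM and the EPO libraries 67.7, 60.04 and 33.0 CPM, a log2 fold change of 1.05 (SE 0.66, edgeR adjusted p = 0.825) without and 1.20 (SE 0.22, adjusted p = 0.000508) with the block. For hspa1b the controls held 11.2, 30.0 and 5.04 CPM and the EPO libraries 41.7, 44.8 and 25.2 CPM, with values of 1.20 (SE 0.55, edgeR adjusted p = 0.701) and 1.39 (SE 0.27, adjusted p = 0.00115). For hsp90ab1 the controls held 108, 111 and 79.1 CPM and the EPO libraries 161, 163 and 119 CPM, without overlap, with values of 0.57 (SE 0.19, edgeR adjusted p = 0.357) and 0.57 (SE 0.13, adjusted p = 0.00879). The first 2 genes overlapped between groups, and their EPO library was above its same-numbered control each time.

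For dnaja1 the controls at 4.0 h held 49.0, 22.7 and 34.8 CPM, which did not differ from those at 1.5 h past the threshold (log2 fold change 0.74, SE 0.25, edgeR adjusted p = 0.999), beside 39.8, 42.2 and 52.4 CPM with EPO. Its log2 fold change at 4.0 h was 0.34 (SE 0.24, edgeR adjusted p = 0.839), and in pair 1 the EPO library was the lower. For hspbp1 the controls held 7.10, 8.58 and 5.54 CPM and the EPO libraries 18.5, 14.8 and 6.97 CPM, with a log2 fold change of 0.89 (SE 0.41, edgeR adjusted p = 0.646).

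Whether the EPO effect differed between the times was tested directly. No member passed in edgeR with or without the block, DESeq2 called 0, and 1 member (1.82%, beside 2.55% of all tested genes), dnaja1, had an unadjusted p under 0.05, with a difference of -0.74 (SE 0.34, edgeR adjusted p = 1.00). Over all tested genes the share was 0% in each direction without the block, and with it 0.0112% had a higher and 0.123% a lower EPO effect at 4.0 h. So the 10 members called at 1.5 h and 3 at 4.0 h with the block are not shown to differ in their response between the times.

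Averaged over both times, 3 members rose: hspbp1 by 1.35 (SE 0.29, edgeR adjusted p = 0.00989), dnaja1 by 0.72 (SE 0.17, adjusted p = 0.0256) and hsp90ab1 by 0.55 (SE 0.14, adjusted p = 0.0335). The call of hspbp1 was lost without EPO library 1 of 4.0 h (edgeR adjusted p = 0.0585), that of dnaja1 in 7 of the 12 fits that left out 1 library (up to 0.0986) and that of hsp90ab1 in 7 of 12 (up to 0.133). The 3 are 5.45% of the members tested, beside 0.649% of all tested genes that rose and 0.537% that fell. With the block 13 rose (23.6%, beside 1.98% of all tested genes that rose and 1.71% that fell). These were the 10 called at 1.5 h with the block, together with hspa8, hsp30d and hsp30e. For dnaja1 the blocked call was lost without number 3 (edgeR adjusted p = 0.127), and for hspbp1 without number 1 or 2 (0.0602 and 0.0665). Of 6 settings with the block, most chosen after seeing the data, hsp90b1 passed in 3 (edgeR adjusted p up to 0.111). Passing in 4 were hsp70 (up to 0.0864), tcp1 (0.103), hsp30d (0.247) and hsp30e (0.413), and hspa8 passed in 5 (0.130). The genes hspa5, hspa1b, hsp90ab1, cct4 and dnajb1 passed in all 6.

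The constitutive cytosolic Hsp70 gene hspa8 made up 51.4% to 63.9% of the Hsp70 sum in each library. It held 399, 322 and 242 CPM in fresh libraries 1, 2 and 3, then 471, 437 and 352 CPM in controls and 571, 524 and 441 CPM with EPO at 1.5 h. At 4.0 h it held 457, 391 and 313 CPM in controls and 495, 564 and 395 CPM with EPO. The groups overlapped at both times, and the mean EPO effect was 0.30 (SE 0.12, edgeR adjusted p = 0.265) without and 0.31 (SE 0.06, adjusted p = 0.000844) with the block.

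The 3 small heat shock proteins with enough counts were the amphibian hsp30 genes hsp30c, hsp30d and hsp30e, which may share reads. For hsp30d the controls held 8.29, 12.5 and 1.99 CPM and the EPO libraries 22.7, 18.2 and 10.2 CPM at 1.5 h, then 8.46, 11.96 and 5.04 CPM and 23.9, 16.97 and 8.79 CPM at 4.0 h. The groups overlapped at both times, and number 3 was the lowest in every group. Its mean EPO effect was 1.01 (SE 0.32, edgeR adjusted p = 0.114) and 1.09 with the block (SE 0.26, adjusted p = 0.00709). For hsp30e it was 1.87 (SE 0.54, edgeR adjusted p = 0.0916) and 1.84 (SE 0.51, adjusted p = 0.0279), on group means of 1.73 to 9.32 CPM. For hsp30c it was 1.05 (SE 0.37, edgeR adjusted p = 0.194) and it did not pass with the block (adjusted p = 0.0653). The small heat shock protein gene hspb1 had 2 counts over all 15 libraries. The 29 members that were not tested had 2 to 119 counts over all libraries, and the highest group mean among them was 4.45 CPM, for dnajc10.

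Several core members passed in neither fit. The mitochondrial Hsp70 gene hspa9 had a mean EPO effect of 0.08 (SE 0.18, edgeR adjusted p = 0.940), the mitochondrial chaperonin gene hspd1 -0.08 (SE 0.39, adjusted p = 0.973) and its partner hspe1 0.17 (SE 0.12, adjusted p = 0.669). The nucleotide exchange factor hspa4 was at 0.35 (SE 0.15, edgeR adjusted p = 0.348), and its relative hsph1, with group means of 1.23 to 3.90 CPM, at 1.21 (SE 0.67, adjusted p = 0.487). Of the 18 type C Hsp40 genes, 9 lay above 0 and 9 below, with a median of -0.00, and none passed in either edgeR fit or had an unadjusted p under 0.05. One of them, dnajc19, a part of the mitochondrial import motor, had group means of 156 to 158 CPM in all 5 groups. Of the type A genes, dnaja4.1 was at 0.52 (SE 0.19, edgeR adjusted p = 0.241, and 0.0529 with the block) and dnaja2, a further cytosolic partner of Hsp70, at 0.14 (SE 0.11, adjusted p = 0.683). The chaperonin subunits other than cct4 and tcp1 lay between -0.04 (SE 0.17, cct7) and 0.30 (SE 0.15, cct6a). The Hsp70 gene hspa2, known in mammals for its role in sperm development, was at 0.40 (SE 0.20, edgeR adjusted p = 0.445).

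Counted by pairs, 16 of the 55 members had the EPO library above its same-numbered control in all 6 pairs, which is 29.1% of them beside 5.09% of all tested genes. None was below in all 6, beside 4.64% of all tested genes. The 16 were 5 of 11 Hsp70 genes, 2 of 3 Hsp90 genes, 3 of 27 Hsp40 genes, 2 of 3 small heat shock proteins, 3 of 10 chaperonin genes and hspbp1. The 3 Hsp40 genes were dnajb1 and the type C genes dnajc14 and dnajc24, while dnaja1 was higher in 5 of 6 pairs. Number 3 was the lowest library in each of the 5 groups for 5 members, hspa5, hspa8, hsp90ab1, hsp90b1 and hsp30d, which is 9.09% of those tested beside 1.33% of all tested genes.

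**Figure D3:**
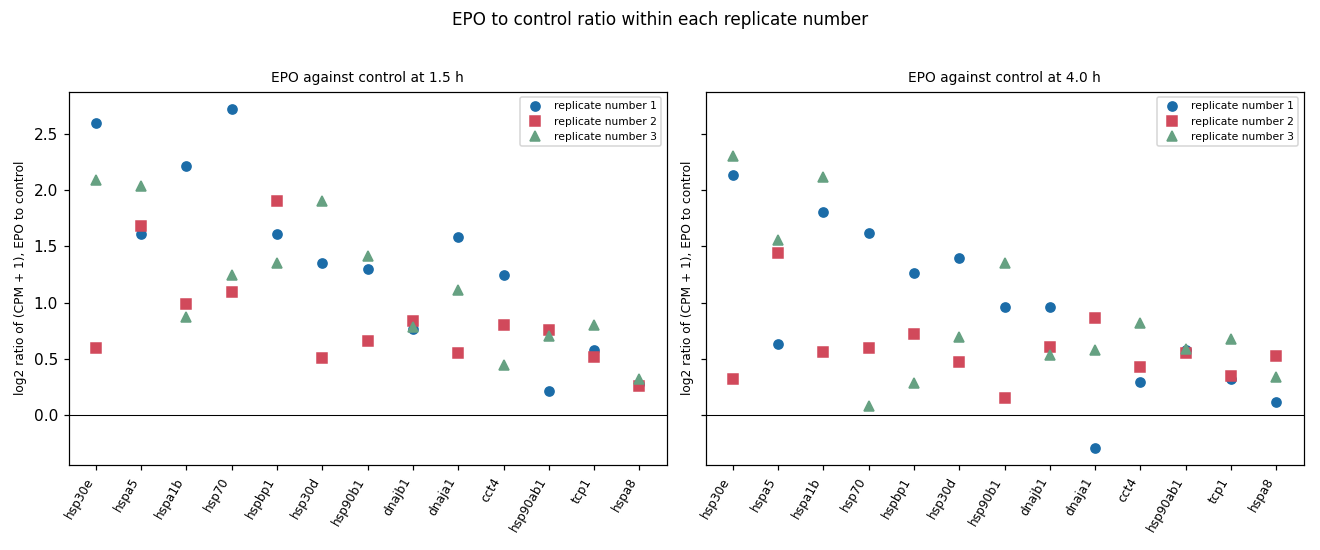
Log2 ratio of EPO to control (CPM + 1) within each replicate number at 1.5 h and 4.0 h, for the 13 genes that passed with the replicate block for the mean EPO effect. All points lie above 0 except dnaja1 in number 1 at 4.0 h, where the control held 49.0 CPM and the EPO library 39.8 CPM. The genes were picked by that effect in these same libraries, so the side of 0 is largely set by the choice.

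The culture itself was compared with fresh cells, using the same control libraries as the EPO comparisons. At 1.5 h no member passed in edgeR without the block, beside 0.179% of all tested genes that rose and 0.145% that fell. None passed in DESeq2 either, beside 68 of all tested genes. An unadjusted p under 0.05 was found for 8 members (14.5%), beside 9.69% of all tested genes. With the block 4 members rose (7.27%, beside 0.705% of all tested genes that rose and 0.604% that fell): hsp90ab1, hspa1b, hspa5 and hspa8. For hsp90ab1 the fresh libraries held 73.8, 68.9 and 50.3 CPM, all below the controls, and the log2 fold change was 0.76 (SE 0.20, edgeR adjusted p = 0.113) and 0.74 with the block (SE 0.14, adjusted p = 0.000838). For hspa1b the fresh libraries held 5.91, 7.80 and 5.85 CPM, also all below the controls, with values of 1.57 (SE 0.68, edgeR adjusted p = 0.479) and 1.55 (SE 0.35, adjusted p = 0.00703). For hspa5 and hspa8 the values with the block were 1.09 (SE 0.27, edgeR adjusted p = 0.0213) and 0.40 (SE 0.09, adjusted p = 0.00695). Both overlapped: fresh libraries reached 28.8 and 399 CPM, and controls began at 12.3 and 352 CPM. Of 6 settings with the block, hspa5 passed in 3 (edgeR adjusted p up to 0.358) and hspa8 in 4 (up to 0.148). Passing in 5 were hsp90ab1 (up to 0.137) and hspa1b (up to 0.310). Without number 1, 2 and 3 the blocked count was 4, 1 and 3, beside 48, 63 and 106 of all tested genes.

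At 4.0 h again no member passed in edgeR without the block, beside 0.0336% of all tested genes that rose and 0.0336% that fell. None passed in DESeq2 either, beside 17 of all tested genes. The unadjusted p was under 0.05 for 11 members (20%), beside 8.1% of all tested genes. With the block 3 rose (5.45%, beside 0.358% of all tested genes that rose and 0.235% that fell). One was the type A Hsp40 gene dnaja4.2, at 13.3, 12.1 and 6.43 CPM in fresh cells and 28.7, 24.2 and 26.7 CPM in culture, with a log2 fold change of 1.32 (SE 0.33, edgeR adjusted p = 0.197) and 1.36 with the block (SE 0.30, adjusted p = 0.0106). Its mean EPO effect was 0.07 (SE 0.20, edgeR adjusted p = 0.948). The others were hsp70, at 1.86 with the block (SE 0.44, edgeR adjusted p = 0.0213), and hsp90ab1, at 0.63 (SE 0.14, adjusted p = 0.0134). Without number 1, 2 and 3 the blocked count was 1, 0 and 1, beside 21, 23 and 47 of all tested genes. Between control cultures at 4.0 h and 1.5 h no member passed in either edgeR fit or in DESeq2. In edgeR 0.0112% of all tested genes rose and 0% fell without the block, and 0.0112% and 0.0783% with it. DESeq2 called 4 of all tested genes. The unadjusted p was under 0.05 for 2 members (3.64%), beside 3.73% of all tested genes.

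Beside the culture comparisons, some markers of other blood cells were lower in culture. The integrin gene itgb3 of the thrombocyte list fell at 4.0 h by 3.10 on the log2 scale (SE 0.58, edgeR adjusted p = 0.0244). Of the 6 tested genes of that list 5 lay below 0, while tubb1 went from 354 to 383 CPM. The list, most of it tubb1, summed to 432 ± 56.7 CPM when fresh and 420 ± 6.92 CPM at 4.0 h. The granulocyte and monocyte list went from a summed level of 385 ± 89.9 CPM when fresh to 282 ± 42.6 CPM in control culture at 1.5 h (SD, n = 3). Beside the EPO comparisons, hba1 had a log2 fold change of -0.18 at 1.5 h (SE 0.09, edgeR adjusted p = 0.755 without and 0.0209 with the block). No marker passed without the block in an EPO comparison. For the mean EPO effect with the block, hba1 (-0.15, edgeR adjusted p = 0.00232), alox5ap (-0.34, adjusted p = 0.0155) and mpo (-0.84, adjusted p = 0.0187) fell, while gata1 (0.33, adjusted p = 0.0166) and spi1 (1.26, adjusted p = 0.0381) rose. The leukocyte gene alox5ap had 116 ± 5.93 and 92.2 ± 4.04 CPM without and with EPO at 1.5 h, and 122 ± 14.1 and 95.6 ± 11.3 CPM at 4.0 h (SD, n = 3). The part of these shifts, or of the deeper EPO libraries, in the chaperone results was not tested. With each library thinned to the smallest total and no block, of the 3 members that rose for the mean EPO effect hspbp1 passed, while dnaja1 (edgeR adjusted p = 0.0934) and hsp90ab1 (0.0633) did not.

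**Figure D4:**
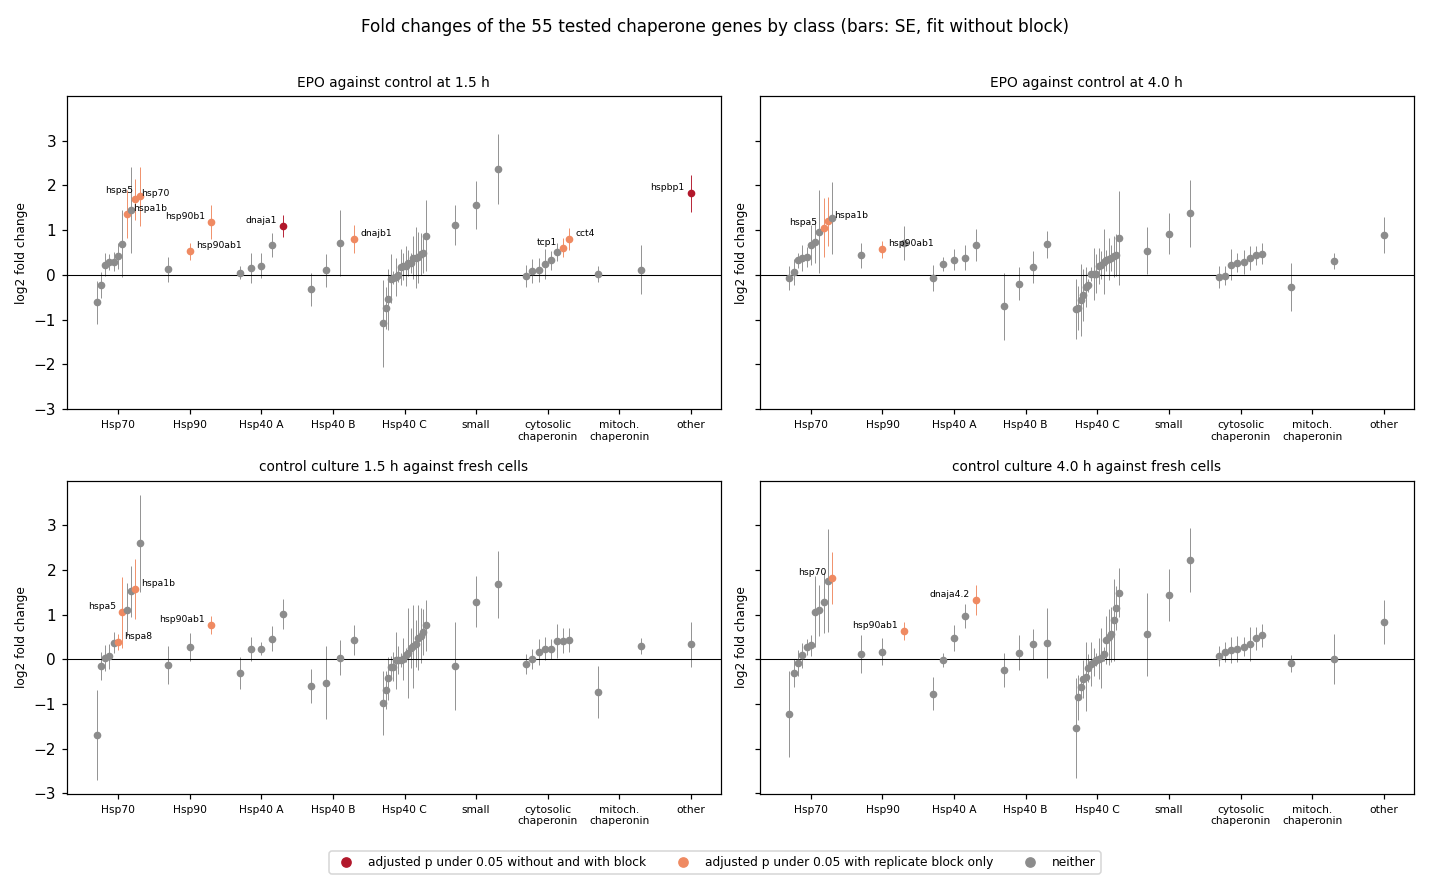
Log2 fold change of each of the 55 tested genes by class in 4 comparisons, with bars for the SE of the fit without the block. Dark red points passed with and without the replicate block and orange points with it only; dnaja1 at 1.09 and hspbp1 at 1.82 are the dark red points at 1.5 h.

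Across all 5 groups at once, 7 members differed (12.7%, beside 3.33% of all tested genes): hsp90ab1, dnaja1, hspbp1, hsp70, cct4, hsp30c and hsp30d. The smallest edgeR adjusted p was that of hsp90ab1, at 0.000308. With the block 16 differed (29.1%, beside 6.43% of all tested genes), which held those 7 and 9 more. Without the block the count went to 4 when fresh library 3 was left out, beside 271 of all tested genes. The 9 were dnaja4.1, dnaja4.2, dnajb1, hsp90b1, hspa1b, hspa1l, hspa5, hspa8 and tcp1.

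Genes that work with the chaperones but lie outside the rule were taken from 3 lists. Of 25 tested co-chaperones and heat shock factors, none passed without the block at 1.5 h, at 4.0 h or for the mean EPO effect in edgeR, while 3, 2 and 6 (12%, 8% and 24%) had an unadjusted p under 0.05, beside 7.13%, 7.1% and 11.8% of all tested genes. With the block 1, 1 and 2 rose, beside 1.07%, 0.324% and 1.98% of all tested genes. The polyubiquitin gene ubb, heat inducible in vertebrates, rose at 1.5 h with the block by 0.62 (edgeR adjusted p = 1.23e-07, without the block 0.0676). Its group means were 466 ± 97.1 CPM in fresh cells, 710 ± 92.5 CPM in controls and 1094 ± 159 CPM with EPO (SD, n = 3). A second polyubiquitin gene, ubc, rose at 4.0 h with the block by 0.31 (edgeR adjusted p = 0.0370). The heat shock factor gene hsf1, whose product switches on heat shock genes, had group means between 14.7 and 19.2 CPM and passed in no comparison. Of 14 tested prefoldin and chaperonin cofactors, 1 rose with the block for the mean EPO effect, beside 1.98% of all tested genes. This was tbcc at 0.93 (edgeR adjusted p = 0.0352, without the block 0.373).

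Of 22 tested genes for endoplasmic reticulum chaperones and the unfolded protein response, 2 rose at 1.5 h in both fits. Of all tested genes 0.38% rose without the block and 1.07% with it. The 2 genes encode transcription factors of the stress response: ddit3 rose by 1.58 (SE 0.25, edgeR adjusted p = 0.000443) and atf4 by 0.70 (SE 0.16, adjusted p = 0.0397). At 4.0 h ddit3 rose by 1.18 (SE 0.25, edgeR adjusted p = 0.0316). It was the 1 of the 22 that rose without the block, beside 0.0559% of all tested genes, and 2 rose with it (0.324%). For the mean EPO effect 2 of the 22 rose and 1 fell without the block, beside 0.649% and 0.537% of all tested genes. With it 3 rose and 2 fell, beside 1.98% and 1.71%. The oxidoreductase gene ero1b fell by 0.71 (SE 0.18, edgeR adjusted p = 0.0354), and with the block the Hsp70 relative hyou1, an exchange factor for BiP, fell by 0.31 (adjusted p = 0.0156) while the disulfide isomerase gene p4hb rose by 0.59 (adjusted p = 0.0356). Within the endoplasmic reticulum, the blocked fit of the mean EPO effect had hspa5, hsp90b1 and p4hb above control. In that fit hyou1 was 1 of the 2 list genes that fell. Of the 22 list genes, 15 lay above 0 and 7 below without the block, with a median of 0.14. The gene ero1b was below control in the fit without the block.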

How the data were processed

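The 15 samples, 3 in each of 5 groups, were sequenced from transcript ends (Lasy-Seq v1.1, per the labels). The deposited table holds raw counts per gene; Salmon, R 4.3.2, BWA 0.7.17-r1188 and fastp 0.21.0 are named in the submitters' processing notes. The order of these tools, the build, the annotation, the strand setting and any rounding: not given in the sources used here. Symbols came from the table, and all 84 members matched RefSeq gene names. Levels are not divided by transcript length.

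Tests on the counts used edgeR 4.0.16 in R 4.3.3, with filterByExpr on the 5 groups, TMM scaling, 5 group means and robust quasi-likelihood tests (biological coefficient of variation 0.286), two-sided, with Benjamini-Hochberg adjustment over all 8939 tested genes and a threshold of 0.05. Each SE was obtained from the fold change and the F statistic, as |log2 fold change| over the root of F. The script was tested on simulated data. Within a group no libraries were copies of each other (chi-square of 4.61 to 12.6 per degree of freedom).

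Whether replicate numbers pair the libraries was checked with 1417 genes whose mean log2 CPM exceeded 5. Deviations from group means correlated at 0.280 to 0.626 in the 30 pairs with the same number and at -0.391 to 0.0484 in the 60 others, and all 15 libraries matched best with their own number. Deviations within a group cancel out, so positive values for the same number push those between different numbers to negative ones. The negative range is therefore not separate evidence. Only this check shows the pairing: what a number stands for is left unsaid by the labels. The block fit (coefficient of variation 0.241) was an alternative, as were DESeq2 1.42.0, other scaling, no globin genes, no filter, only the groups compared, and leaving out each library.

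The members and lists were chosen with earlier results of these data known. Members named were those past the threshold in either fit, some of the 5 smallest p-values where fewer passed, a fixed set of core chaperones, the most abundant gene of each class, and a few added after their values were seen, such as hspa1a. Other members among the 5 smallest p-values of a comparison, such as hspa14, dnajc8 and dnajc17, passed in neither fit and were not described.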

Additional observations from a re-analysis of the deposited data

Results flagged for a closer look

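The EPO effect on ubb differed between the times in the fit with the replicate block: its log2 fold change at 4.0 h minus that at 1.5 h was -0.74 (edgeR adjusted p = 5.66e-05), and without the block it was -0.73 (SE 0.22, adjusted p = 1.00). Fresh cells held 466 ± 97.1 CPM (SD, n = 3). At 1.5 h the group means were 710 ± 92.5 CPM in controls and 1094 ± 159 CPM with EPO. At 4.0 h they were 621 ± 82.6 and 577 ± 101 CPM.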

How the results depend on the processing

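With the replicate block 10 members passed at 1.5 h (2 without), 3 at 4.0 h (0 without), 13 for the mean EPO effect (3 without), 4 and 3 for control culture at 1.5 h and 4.0 h against fresh cells (0 and 0 without), and 16 among the 5 groups (7 without). Over all 8939 tested genes the counts with the block were, in the same order, 139, 76, 330, 117, 53 and 575. Without the block they were 39, 17, 106, 29, 6 and 298. With DESeq2 size factors in the blocked fit the member counts were again 10, 3, 13, 4, 3 and 16. The all-gene counts were 137, 76, 334, 125, 50 and 577. Other settings with the block were chosen after seeing the data. Thinned to the smallest total, the blocked member counts were 6, 2, 11, 3, 3 and 15. Over all genes they were 90, 46, 184, 104, 46 and 437. Without number 1 the member counts were 2, 1, 9, 4, 1 and 11, without number 2 they were 4, 1, 11, 1, 0 and 13, and without number 3 they were 6, 1, 9, 3, 1 and 15. Over all genes the counts were 70, 58, 185, 48, 21 and 312 without number 1. They were 76, 40, 178, 63, 23 and 343 without number 2, and 70, 35, 140, 106, 47 and 334 without number 3. Without the block, thinning, also chosen after seeing the data, gave 1 member at 1.5 h (27 of all genes), and ended the mean EPO calls of dnaja1 (adjusted p = 0.0934) and hsp90ab1 (0.0633) and the call of hsp30c among the 5 groups (0.142). With no filter on low counts the member counts were 5 at 1.5 h, 12 for the mean EPO effect, 2 and 2 for culture and 18 among the 5 groups. Over the 23380 genes of that fit they were 66, 163, 68 and 38, and 441. DESeq2's Wald test gave 8 members for the mean EPO effect, and its likelihood ratio test 12 among the 5 groups. Over all genes these counts were 206 and 500. Leaving out each library in turn gave 0 to 2 members at 1.5 h, 0 at 4.0 h, 1 to 8 for the mean EPO effect, 0 for culture against fresh cells, and 4 to 10 among the 5 groups. Over all genes the counts ran from 13 to 36 at 1.5 h, 0 to 12 at 4.0 h and 64 to 113 for the mean. For culture against fresh cells they ran from 7 to 30 at 1.5 h and 0 to 10 at 4.0 h. Among the 5 groups they ran from 231 to 309. The member count stayed at 0 in all settings run for the difference of the EPO effects and for control culture at 4.0 h against 1.5 h. Mean EPO effects near 0 changed sign: hspa9 (0.076) ranged from -0.072 (without control library 3 of 1.5 h) to 0.21 when 1 library was left out, and was -0.016 with the block and without number 3. For hspd1 (-0.076) that range was -0.30 to 0.15, with 0.058 without control library 1 of 1.5 h, 0.15 without control library 3 of 4.0 h, 0.12 without EPO library 3 of 4.0 h, and 0.22 with the block and without number 3. The cause of these changes was not tested. The block changed no other call on members than those given here and in the report. Depth limits the 29 members that were not tested, which had 2 to 119 counts over all 15 libraries.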
